A study of Homo sapiens with 2 samples.

Results

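The genes of the proteasome were compared between HT-29 spheroids and HT-29 monolayer cells. Members were all genes named PSMA, PSMB, PSMC, PSMD, PSME, PSMF or PSMG plus a number, which are the subunits, activators, the inhibitor and the dedicated assembly chaperones of the proteasome. RefSeq holds 48 protein-coding genes with such a name. A probe set assigned to that gene alone was at hand for 42 of them, among 19775 genes on the array, and each gene was read from its brightest probe set by mean log2 signal. PSMA6 and PSME2 have only probe sets that are shared with another gene, and PSMB11, PSMC5, PSMD7 and PSMD13 have none named here, so that these 6 genes were not analysed here. PSMA8 and PSMB8 were under the floor, a signal of 62.7, on both arrays, which left 40 measured genes, all of them above the floor on both arrays.

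HT-29 is an established human colorectal adenocarcinoma line. Spheroids were harvested on day 5 from low-adhesion plates in stem cell media, a medium with B27, EGF and FGF, which are a supplement and a pair of growth factors, while monolayer cells were kept attached in DMEM/F-12 with fetal bovine serum, so that effects of medium and growth form cannot be told apart. The RNA of each culture was hybridised to 1 Human Genome U133 Plus 2.0 array, and the values are MAS5 signals, intensities on a linear scale. With 1 array per culture there is no replicate error and no test was possible. Every difference below is between these 2 arrays, and the only spread that can be shown is that between probe sets of one gene.

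The proteasome degrades proteins that carry ubiquitin. Its barrel, the 20S core, has outer rings of alpha subunits, which gate the entry, and inner rings of beta subunits, of which PSMB5, PSMB6 and PSMB7 hold the proteolytic sites. A 19S cap binds the ubiquitin chain, removes it and unfolds the protein. Its base has a ring of PSMC ATPases and its lid holds the deubiquitinase PSMD14. Interferon gamma induces PSMB8, PSMB9 and PSMB10, which take the places of PSMB5, PSMB6 and PSMB7 in the immunoproteasome, and the activator subunits PSME1 and PSME2. This form is known for making peptides for MHC class I molecules. When the proteasome is inhibited, the transcription factor NFE2L1 raises many of its genes through antioxidant response elements in their promoters.

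The promoters of 5 members are shown because the results turn on these genes. PSMB9, PSMB10 and PSME1 are the measured immunoproteasome genes, which were lower in spheroids in every setting tried, and PSMC6 and PSMA3 had the highest differences of the 40 genes. Each is the 250 bases before the annotated start, 5′ to 3′ on the gene's strand, from RefSeq on GRCh38.p14. Capitals mark matches, on either strand, to the antioxidant response element core (TGACNNNGC), the interferon response element (GAAA, then 2 bases of any kind, then GAAA), the CCAAT box (CCAAT) and the gamma-activated site (TTCNNNGAA). No match overlapped another.
PSMB9, chr6:32853942-32854191, plus strand: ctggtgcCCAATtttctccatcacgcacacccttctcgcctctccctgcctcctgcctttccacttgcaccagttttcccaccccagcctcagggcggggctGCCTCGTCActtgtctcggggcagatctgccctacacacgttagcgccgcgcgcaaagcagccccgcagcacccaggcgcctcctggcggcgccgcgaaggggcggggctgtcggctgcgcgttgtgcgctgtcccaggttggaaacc
PSMB10, chr16:67936851-67937100, minus strand: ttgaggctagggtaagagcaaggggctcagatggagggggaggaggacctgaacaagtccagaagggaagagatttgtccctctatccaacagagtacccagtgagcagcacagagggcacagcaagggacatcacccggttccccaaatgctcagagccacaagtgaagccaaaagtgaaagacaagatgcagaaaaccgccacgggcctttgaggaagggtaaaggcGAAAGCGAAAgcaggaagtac
PSME1, chr14:24135944-24136193, plus strand: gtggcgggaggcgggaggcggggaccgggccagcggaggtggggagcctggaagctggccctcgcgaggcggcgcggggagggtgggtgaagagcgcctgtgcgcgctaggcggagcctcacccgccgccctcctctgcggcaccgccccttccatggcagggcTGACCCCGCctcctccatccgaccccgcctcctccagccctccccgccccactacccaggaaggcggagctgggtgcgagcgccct
PSMC6, chr14:52706950-52707199, plus strand: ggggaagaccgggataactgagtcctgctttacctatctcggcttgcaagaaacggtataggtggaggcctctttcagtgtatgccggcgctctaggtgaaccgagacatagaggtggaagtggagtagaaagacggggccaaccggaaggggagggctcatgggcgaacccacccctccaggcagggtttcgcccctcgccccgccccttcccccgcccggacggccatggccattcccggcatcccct
PSMA3, chr14:58244593-58244842, plus strand: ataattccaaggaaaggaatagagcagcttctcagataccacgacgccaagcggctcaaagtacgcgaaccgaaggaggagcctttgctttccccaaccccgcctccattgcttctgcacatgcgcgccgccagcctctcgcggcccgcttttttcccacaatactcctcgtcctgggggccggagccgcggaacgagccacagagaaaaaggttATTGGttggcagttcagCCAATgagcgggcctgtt

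The window of PSMB9 held 1 antioxidant response element core and 1 CCAAT box, that of PSME1 held 1 antioxidant response element core, and that of PSMB10 held 1 interferon response element. The window of PSMA3 held 2 CCAAT boxes, and the window of PSMC6 held none of the letters searched. Of 42 genes named by the rule that have a promoter in the table, 13 held the antioxidant response element core, 5 the interferon response element, 19 the CCAAT box and 7 the gamma-activated site in at least 1 window. Of all 35116 promoter windows, 10.9%, 3.02%, 32% and 6.57% held these motifs in the same order. These shares are per window, while the counts are per gene and a gene can have several windows, so they are not like for like. Measured members with the antioxidant response element core had a median log2 difference of -0.12 (11 genes), compared to 0.02 for those without it (23 genes). With the interferon response element the median was -0.18 (4 genes), compared to 0.00 without it (30 genes). These 4 genes ran from -0.57 for PSMB10 to 0.40 for PSMA4. With the CCAAT box the median was 0.05 (16 genes), compared to -0.04 without it (18 genes). With the gamma-activated site the median was -0.12 (5 genes), compared to -0.01 without it (29 genes). Measured members with no promoter at hand are in none of these counts. A link of a motif to a difference was not tested.

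Proteasome genes were measured at close signals in spheroids and monolayer cells, with PSMB9, PSMG3 and PSMB10 lower and PSMC6 and PSMA3 higher in spheroids by the most. The median log2 difference, spheroid minus monolayer, was -0.04 over the 40 genes and -0.05 over all 13183 genes measured. None of the 40 was at least 2-fold higher or lower on the spheroid array, where 5.61% of all genes measured were past that threshold, 2.53% higher and 3.08% lower. All 40 lay between -0.88 and 0.52, which is 1.84-fold lower for PSMB9 and 1.43-fold higher for PSMC6. In RNA of whole cultures, fewer cells of a type and less RNA per cell cannot be told apart.

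A smaller difference of at least 0.32 on the log2 scale was reached by 5 proteasome genes that were higher in spheroids (20.5% of all genes measured) and by 6 that were lower (25.8% of all genes). The other 29 differed by less. At 1.5-fold, 0 were higher (9.53% of all genes) and 1 was lower, PSMB9 (11.6% of all genes). Above 0 were 17 of the 40 (45.2% of all genes), and 23 were under 0 (54.8% of all genes). The SD of the log2 difference across the proteasome genes was 0.30, compared to 0.51 across all genes measured. Of the 40 genes 38 had a mean signal of 1000 or more, so the spread was also taken over bright genes. The genes under that signal were PSMB9 and PSMB10, and without them the lowest difference was -0.58, that of PSMG3. Across the 5246 genes of the array with such a signal the SD was 0.40 and 1.81% were past 2-fold, and across the 38 proteasome genes it was 0.26.

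**Figure D1:**
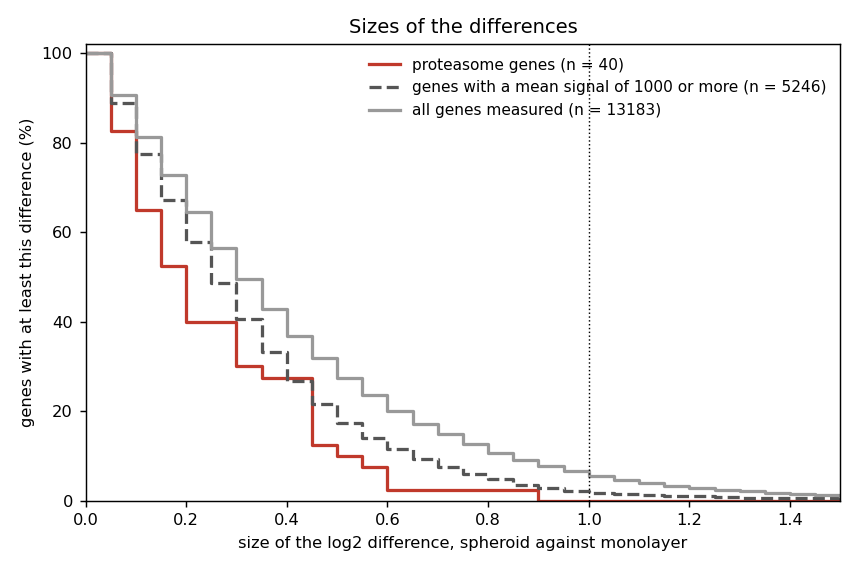
Share of genes (vertical axis, %) whose log2 difference between the spheroid and the monolayer array was at least the size on the horizontal axis, for 40 proteasome genes (red), 5246 genes with a mean signal of 1000 or more (dashed) and all 13183 genes measured (grey), in steps of 0.05, 1 array per culture. The dotted line marks 2-fold. At a size of 0.2 the share was 40% of the proteasome genes and 64.4% of all genes, and no proteasome gene reached 2-fold.

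The arrays do not fix the zero of these differences. Control transcripts added at hybridisation have 18 probe sets, and each of the 18 gave less signal in spheroids than in monolayer cells, by a mean log2 difference of -0.25. Scaled to these spike-ins, the median of all genes was at 0.18 in place of -0.05. On this scale 30 of the 40 proteasome genes were above 0 and their median was 0.21. The share of all genes above 0 on this scale was not counted. With this scaling 700 genes of the array were at least 2-fold higher and 189 lower, compared to 334 and 406 on the scale as deposited, and with the arrays set to the same median 257 were higher and 498 lower. Relative to the median of all genes, the proteasome median differed by at most 0.08 in every setting tried. A direction for a group of genes is therefore given below with its place relative to all genes.

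**Figure D2:**
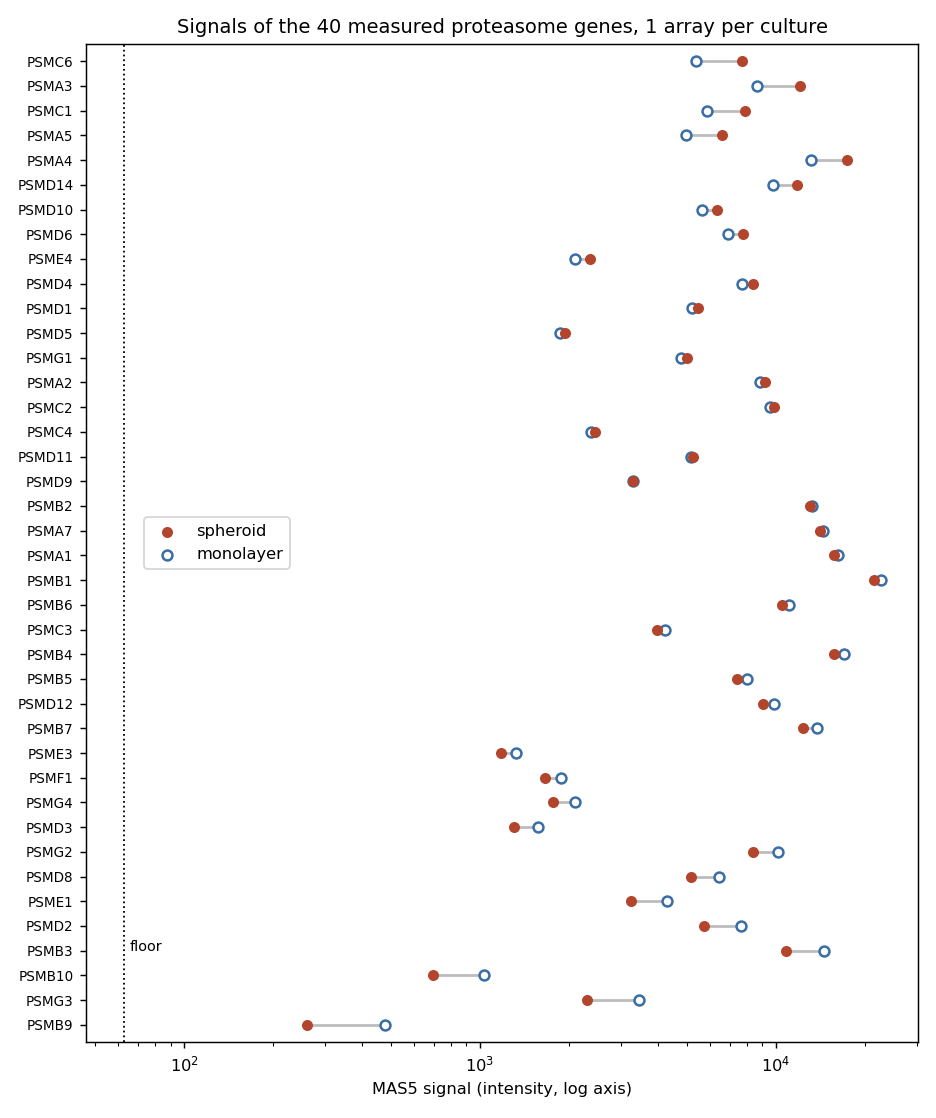
MAS5 signal (log axis) of the 40 measured proteasome genes on the spheroid array (filled) and the monolayer array (open), ordered by their difference, 1 array per culture; the dotted line is the floor of 62.7. The signals of PSMC6, PSMA3, PSMC1, PSMA5 and PSMA4 were higher in spheroids, and those of PSMB9, PSMG3 and PSMB10 stood farthest apart in the other direction.

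The immunoproteasome genes had the lowest median of the 7 groups of proteasome genes. PSMB9, the induced subunit that replaces PSMB6, had a signal of 261 in spheroids and 479 in monolayer cells, a log2 difference of -0.88. PSMB10, which replaces PSMB7, had 691 in spheroids and 1029 in monolayer cells, a log2 difference of -0.57. PSME1, a subunit of the activator that opens the core, had 3234 in spheroids and 4283 in monolayer cells (-0.41). All 3 were thus lower in spheroids, with a median of -0.57, where 54.8% of all genes measured were under 0. They remained under 0 and under the median of all genes in all 8 settings tried, the scaling to the spike-ins included. Of the members outside this set only PSMG3 (-0.58), PSMB3 (-0.42) and PSMD2 (-0.41) were lower than PSME1. PSMB9, PSMB10 and PSME1 are each measured by 1 probe set, so no second probe set speaks to their values. PSMB9 and PSMB10 were also the dimmest of all measured proteasome genes.

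PSMB8, the third induced subunit, had signals of 7.24 in spheroids and 22.0 in monolayer cells, both under the floor of 62.7, and no fold is given. With the floor at the 75th percentile of all signals, 386, the spheroid signal of PSMB9 was under the floor and its log2 difference was a bound of -0.31. The constitutive subunits that these genes replace showed smaller differences. PSMB6, which holds the caspase-like site, had 10479.9 in spheroids and 11085 in monolayer cells (-0.08). PSMB7, the trypsin-like subunit, had 12376 in spheroids and 13722 in monolayer cells (-0.15), and PSMB5, the chymotrypsin-like subunit, had 7382 in spheroids and 8000.2 in monolayer cells (-0.12). The log2 difference of PSMB9 was 0.80 under that of PSMB6, and that of PSMB10 was 0.43 under that of PSMB7, values that multiplying a whole array by 1 factor cannot move.

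Genes next to these in the genome or in the same response were less far from 0 than PSMB9 and PSMB10 by their brightest probe sets. TAP1, a subunit of the transporter that loads peptides and the neighbour of both PSMB8 and PSMB9 among protein-coding genes, had 1059.7 in spheroids and 1289 in monolayer cells (-0.28). TAP2, the other transporter subunit and the next neighbour of PSMB8, was at -0.12. The interferon-induced transcription factor IRF1 was at -0.05, though its other probe set was at 0.85, and NLRC5, which activates MHC class I genes, had 123 in spheroids and 101 in monolayer cells (0.28).

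**Figure D3:**
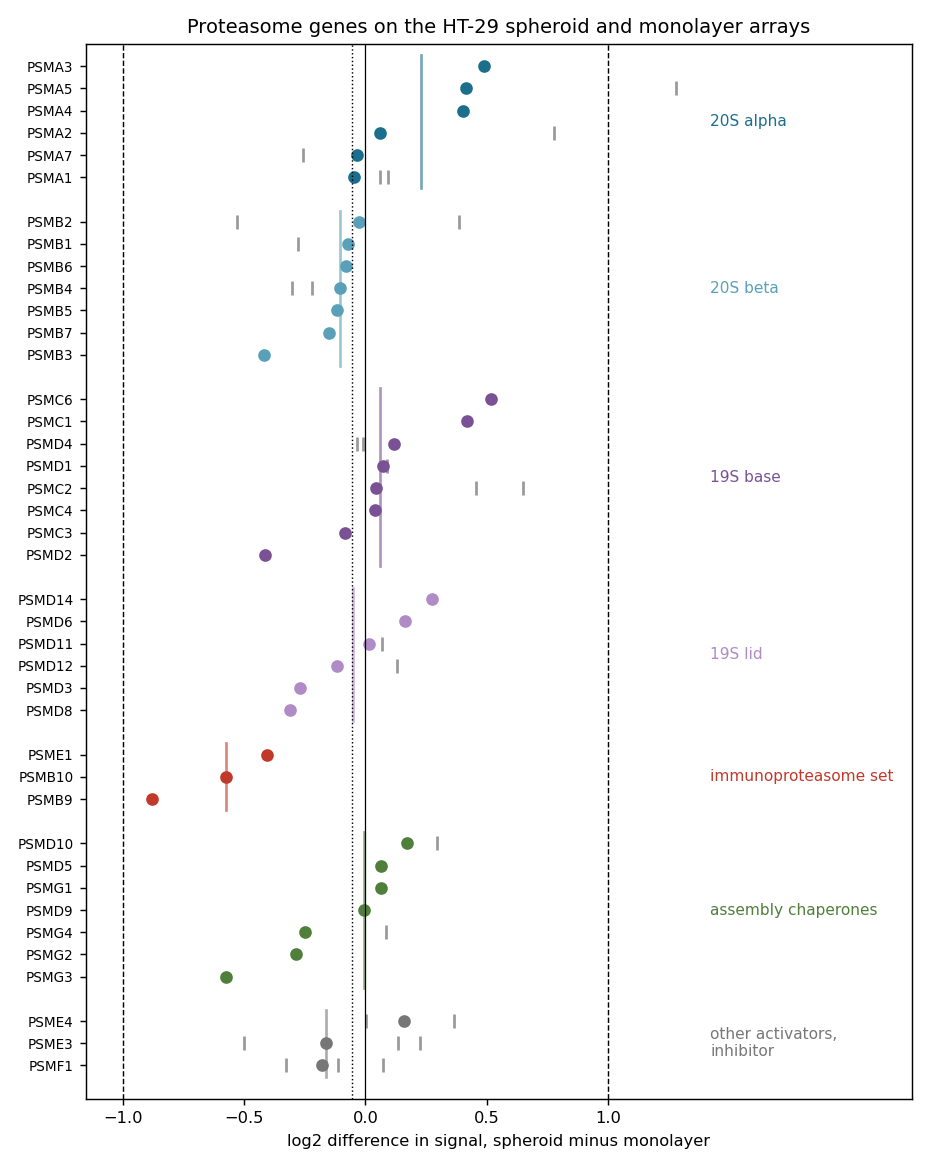
Log2 difference in signal, spheroid minus monolayer, of 40 proteasome genes in 7 groups, 1 array per culture; each dot is 1 gene, grey ticks mark its dimmer probe sets where both arrays passed the floor, coloured lines are group medians, the dotted line is the median of all genes (-0.05) and dashed lines are 2-fold. PSMA3, PSMA4, PSMA5, PSMC1 and PSMC6 lie to the right of 0.4 and PSMB9 farthest left at -0.88; scaling to the spike-ins would move every dot to the right by 0.25, which puts 6 of the 7 beta genes above 0.

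In the 20S core the alpha genes had a higher median than the beta genes, while single genes of both groups overlapped. Of 6 measured alpha genes 4 were above 0 (45.2% of all genes), with a median of 0.23. All 6 were above the median of all genes. With the arrays set to the same median 3 were above 0, and 4 or 5 were above the median of all genes under the other choices of probe set. Without a floor, which adds PSMA8 from signals under it, the median was 0.06. PSMA3 had 12083 in spheroids and 8623 in monolayer cells, a log2 difference of 0.49. PSMA5 had 6587 in spheroids and 4949.7 in monolayer cells (0.41), and PSMA4 had 17341 in spheroids and 13133 in monolayer cells (0.40). All 3 code for structural subunits with no catalytic site, and no other alpha gene reached 0.32. PSMA2, PSMA7 and PSMA1 were near 0, at 0.06, -0.03 and -0.05. PSMA1 was lowest of the alpha genes, with 15656 in spheroids and 16156 in monolayer cells. PSMA8, the subunit of the testis form, had 28.6 in spheroids and 28.3 in monolayer cells, both under the floor.

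All 7 measured beta genes were under 0 on the deposited scale (54.8% of all genes) and 6 of them under the median of all genes. But scaled to the spike-ins 6 were above 0 and with quantile normalization 2 were. Their median was -0.10, which is 0.05 under the median of all genes. PSMB3, a structural beta subunit, stood apart with 10851 in spheroids and 14491 in monolayer cells (-0.42). The other 6 lay between -0.15 for PSMB7 and -0.03 for PSMB2. PSMB2, highest of the group, had 12983 in spheroids and 13214 in monolayer cells.

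In the 19S base the ATPases differed among themselves. PSMC6 had the highest difference of all 40 genes, with 7654 in spheroids and 5350.1 in monolayer cells, a log2 difference of 0.52. PSMC1 had 7843 in spheroids and 5869.6 in monolayer cells (0.42). The ATPases PSMC2, PSMC4 and PSMC3 were at 0.04, 0.04 and -0.09. Among the other base subunits, PSMD2, a docking platform for ubiquitin shuttles, had 5727 in spheroids and 7634 in monolayer cells and was lowest of the base at -0.41. The scaffold PSMD1 was at 0.07 and the ubiquitin receptor PSMD4 at 0.12. Of the 8 base genes 6 were above 0 (45.2% of all genes) and the median was 0.06. But with the arrays set to the same median 3 were above 0 and the median was -0.02.

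The lid genes had no common direction, with 3 of 6 above 0 (45.2% of all genes) and a median of -0.05. Scaling to the spike-ins moved this median to 0.20. PSMD14, which cuts ubiquitin chains from the substrate, was highest with 11801 in spheroids and 9754 in monolayer cells (0.27). PSMD8 was lowest with 5167 in spheroids and 6402 in monolayer cells (-0.31), and PSMD3 was at -0.27. PSMD6, PSMD11 and PSMD12, structural lid subunits, were at 0.16, 0.02 and -0.12.

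Among the assembly chaperones within the naming rule, those of the core had a lower median than those of the cap base, and the genes overlapped. Assembly factors outside the rule, PAAF1 of the cap (-1.05) and POMP of the core (0.02), are not in these medians. PSMG1 and PSMG2, which pair to build the alpha ring, were at 0.06 and -0.29, and PSMG3 and PSMG4, the other pair, at -0.58 and -0.25. PSMG3 was lowest, with 2307 in spheroids and 3439.7 in monolayer cells, 1.49-fold lower. The median of these 4 was -0.27. The base chaperones PSMD10, PSMD5 and PSMD9 were at 0.17, 0.07 and -0.01, with a median of 0.07. PSMD10, also known as the oncoprotein gankyrin, was highest with 6331 in spheroids and 5615 in monolayer cells. Over all 7 chaperones the median was -0.01, with 3 above 0 (45.2% of all genes). Scaling to the spike-ins moved this median to 0.24.

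The other activators and the inhibitor lay between -0.18 and 0.16. PSME4, a large activator found in the nucleus, was highest with 2348 in spheroids and 2101 in monolayer cells (0.16). PSMF1, an inhibitor of the core in vitro, was lowest with 1661 in spheroids and 1879 in monolayer cells (-0.18). PSME3, a nuclear activator, was at -0.16, but its 4 probe sets ran from -0.50 to 0.23. The median of these 3 genes was -0.16, and scaling to the spike-ins moved it to 0.08.

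**Figure D4:**
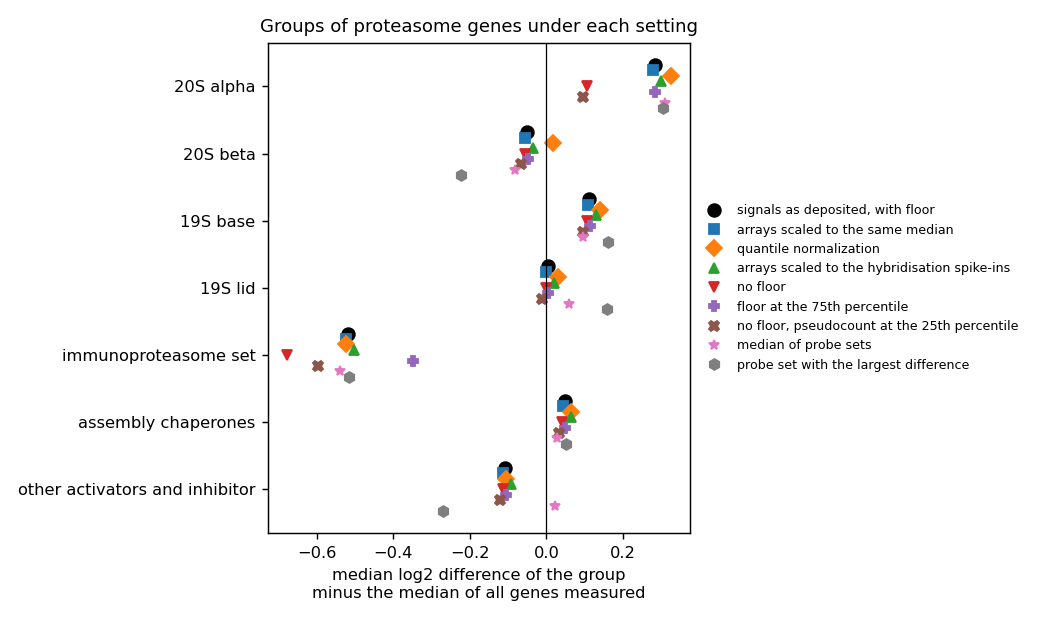
Median log2 difference of each group of proteasome genes minus the median of all genes measured (horizontal axis), under the deposited scale with the floor (black) and 8 other settings (other symbols), 1 array per culture. The immunoproteasome set stayed left of 0 (-0.68 to -0.35). The alpha genes, the base genes and the assembly chaperones (0.03 to 0.07) stayed right of 0. The beta genes crossed 0 with quantile normalization (0.02), and the lid genes and the other activators also crossed it in some settings.

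Probe sets of one gene gave a measure of scatter within the arrays. Of the 42 genes 20 have 1 probe set. In 17 genes at least 2 probe sets passed the floor on both arrays, and for them probe sets of the same gene scattered in log2 difference with a pooled SD of 0.27, compared to 0.41 for 5506 genes of the array. This is scatter on the same 2 arrays and holds no error between replicate cultures. Whether probe sets of one gene read different transcripts was not tested. PSMB9, PSMB10 and PSMG3, with the largest differences, have 1 probe set each and no such value. Besides the brightest there were 27 such probe sets, of which 17 had the same sign as the brightest one. In no gene did such probe sets differ by more than 1 on the log2 scale.

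The widest ranges were those of PSMB2 (0.91), whose dimmer probe sets were at 0.39 and -0.53, and PSMA5 (0.87). The second probe set of PSMA5 had 354 in spheroids and 146 in monolayer cells, a log2 difference of 1.28. The second probe set of PSMA2 was at 0.78, with 1455 in spheroids and 849.7 in monolayer cells, and those of PSMC2 were at 0.65 and 0.45. One of PSMB7 had 191 in spheroids and was under the floor in monolayer cells, at least 3.05-fold higher, while the brightest was at -0.15. The 2 further probe sets of PSMA3 were each under the floor on 1 array and went opposite ways, with bounds of 0.15 and -0.81. For PSMD1, PSMD11 and PSMA1 the ranges were 0.02, 0.05 and 0.14. PSMA1, PSMA7, PSMD4 and PSME3 are represented by probe sets of the x_at kind, some of whose probes can bind other sequences, and their median was -0.04.

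By position, the 3 highest genes, PSMC6, PSMA3 and PSMC1, all have their promoters on chromosome 14. The other 2 measured members there, PSMB5 and PSME1, were at -0.12 and -0.41, so that the 5 genes spanned both directions. The positions were looked up after the values were seen. Other genes of chromosome 14 were not compared, and a part of position in the differences was not tested.

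Genes that work with the proteasome but fall outside its naming rule were taken from 5 lists, with 29 of 35 genes measured. Their median log2 difference was -0.05. At least 1.5-fold higher were 2 of the 29 (9.53% of all genes), and 2 were at least 1.5-fold lower (11.6% of all genes), 1 of them past 2-fold (3.08% of all genes). The gene past 2-fold was PAAF1, which binds the ATPases of the cap and takes part in its assembly, with 234 in spheroids and 486 in monolayer cells, a log2 difference of -1.05 by 1 probe set. POMP, the maturation factor of the core, had 13955 in spheroids and 13784 in monolayer cells (0.02). The ubiquitin receptor ADRM1 and the small cap subunit SEM1 were at -0.18 and -0.29.

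Of the deubiquitinases, ligases and shuttles 5 of 12 were above 0 (45.2% of all genes). ZFAND2A, a proteasome-associated protein induced by arsenite, had 1237 in spheroids and 681 in monolayer cells (0.86, 1 probe set). UCHL5, a deubiquitinase of the cap, had 3239 in spheroids and 1945 in monolayer cells (0.74), and its 3 probe sets ran from 0.08 to 0.74. AKIRIN2, which brings proteasomes into the nucleus, had 1299 in spheroids and 2283 in monolayer cells (-0.81), and its 3 probe sets were all under 0, from -0.81 to -0.42. The deubiquitinase USP14 was at -0.02.

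In the NFE2L1 route 4 of 6 measured genes were above 0 (45.2% of all genes), none past 1.5-fold by its brightest probe set. NFE2L1 itself had 3873 in spheroids and 3757 in monolayer cells (0.04), with probe sets from -0.34 to 0.86. Its relative NFE2L2 was at 0.26. NGLY1, which removes the sugar chains of NFE2L1, was highest with 2455 in spheroids and 1851 in monolayer cells (0.41), and its probe sets ran from 0.41 to 1.57. VCP, the segregase that pulls NFE2L1 from the membrane, was lowest with 3644 in spheroids and 4621 in monolayer cells (-0.34), and its probe sets ran from -0.34 to 0.65. The ubiquitin-activating enzymes lay on either side of 0. UBA6 had 3451 in spheroids and 2465 in monolayer cells (0.49), with probe sets from -0.04 to 0.60, and UBA1 had 1337 in spheroids and 1889 in monolayer cells (-0.50). The ubiquitin gene UBB was at -0.05.

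**Figure D5:**
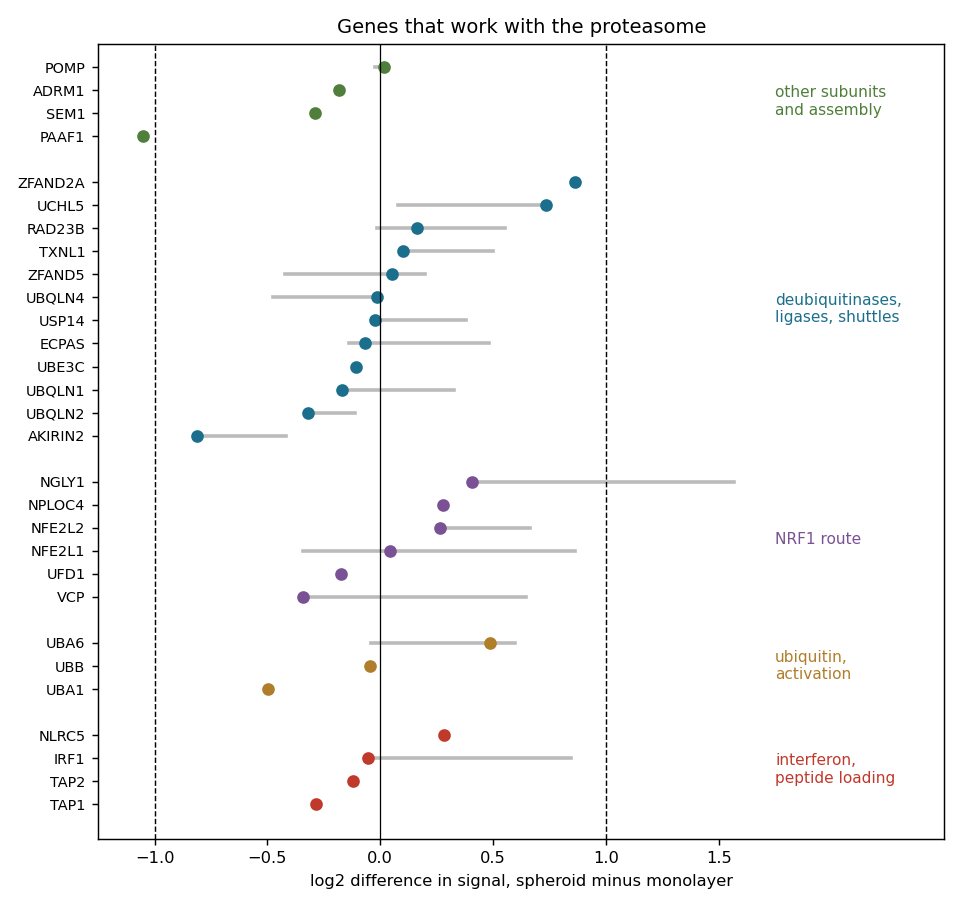
Log2 difference in signal, spheroid minus monolayer, of 29 genes in 5 lists that work with the proteasome, 1 array per culture; each dot is 1 gene, the grey bar is the range over its probe sets where both arrays passed the floor, and dashed lines are 2-fold. PAAF1 (-1.05) is the only dot past 2-fold, ZFAND2A (0.86) and UCHL5 (0.74) lie farthest right, and the bars of NFE2L1 and VCP span 0.

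Both arrays had a trimmed mean of 500.1. The 3′ control of GAPDH gave 1.07 times its 5′ control in spheroids and 1.05 times in monolayer cells, and that of ACTB gave 3.65 times its 5′ control in spheroids and 4.07 times in monolayer cells. Of 11 markers of colon epithelium 5 were above the floor on both arrays, EPCAM, CDH1, KRT8, KRT18 and KRT20. CDX2, VIL1 and CEACAM5 were above it on 1 array, and CDX1, LGALS4 and CDH17 were under it on both. EPCAM, CDH1 and KRT20 were higher in spheroids (0.08, 0.41 and 1.13), and KRT8 and KRT18 were lower (-0.33 and -0.39). Of immune cell markers 0 of the 3 with a probe set were above the floor on either array. Of fibroblast markers COL1A1 was above the floor on both arrays, with 1972 in spheroids and 1369.6 in monolayer cells, and COL1A2 on the monolayer array alone, and of endothelial markers PECAM1 alone was, on both. The summed signal of 5 fibroblast markers was 2161 in spheroids and 1506 in monolayer cells, most of it from COL1A1. The 4 probe sets of COL1A1 ran from -0.05 to 1.04. For the 11 epithelial markers the sum was 58247 in spheroids and 64255 in monolayer cells. Both sums include signals under the floor. The 3 immune markers and the endothelial markers VWF and CDH5 were under the floor on both arrays and have no order. Their part in the differences was not tested.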

How the data were processed

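Total RNA of HT-29 spheroids and HT-29 monolayer cells (1 array each) was labelled with a 3′IVT kit and hybridised to Human Genome U133 Plus 2.0 arrays. The deposited intensities are MAS5 signals that the authors computed with Affymetrix Expression Console (version not given in the sources used here), scaled to a common trimmed mean. Detection calls were not used here. The methods speak of duplicates, while the data used here hold 1 array per culture, and this number limits the precision.

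Of 54675 probe sets, 41097 carry 1 gene in the platform annotation, 1801 carry several and were not used for any gene, and 11777 have no gene here. Through Entrez numbers, 41043 got a current RefSeq symbol. The floor, 62.7, is the 50th percentile of both arrays together, and lower signals were raised to it. The log2 difference is spheroid minus monolayer, and a gene under the floor on both arrays has none. The 2-fold threshold is that of the methods. Python 3.11.15, numpy 2.4.6, pandas 2.3.3 and matplotlib 3.10.9 were used, and the computation was tested on simulated data.

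Members, groups, partner lists and alternatives were chosen with earlier results of these data known. Values on both arrays are given for the immunoproteasome and catalytic genes, the highest and lowest gene of each group, and genes past 1.5-fold, under the floor, or with probe sets more than 1 apart. PSMA4, PSMA5, PSMC1, NFE2L1, COL1A1 and the dimmer probe sets of PSMA2, PSMA5 and PSMB7 were added after their values were seen, as was the count of chromosome 14 genes.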

Additional observations from a re-analysis of the deposited data

How the results depend on the processing

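Each value was recomputed under 8 other settings of scaling, floor and probe set choice, and the counts past 2-fold also at 1.5-fold. With no replicates, a median was taken to have moved when it shifted by more than the SD across its genes. Of 91 values for groups and counts 80 were labelled the same and 11 moved. Scaling to the spike-ins shifts all measured proteasome genes alike, so the label of a median then depends on the SD of its group. The medians of the base genes, the chaperones and all 40 genes shifted as far as the rest, to 0.30, 0.24 and 0.21. Their SD is larger, so they were labelled the same. Scaling to the spike-ins put 30 genes above 0 and moved the medians of the alpha genes to 0.48, the beta genes to 0.14, the lid genes to 0.20, the immunoproteasome set to -0.33 and the other activators and inhibitor to 0.0841, while the median of all genes went to 0.18. With the arrays set to the same median 10 genes were above 0, and the median of all genes was -0.13. When each gene was read from its most different probe set, 2 genes were at least 2-fold higher, PSMA5 and PSMB7, and the beta median was -0.28. Without a floor 1 gene was at least 2-fold lower, PSMB8, from 2 signals under the floor, and at 1.5-fold 1 was lower, PSMB9. Over all genes, 334 were at least 2-fold higher and 406 lower, and these counts became 700 and 189 with the spike-ins, 2476 and 2502 without a floor, 1319 and 1397 with a pseudocount of 15.9 in its place, 100 and 74 with the higher floor of 386, and 791 and 716 with the most different probe sets. No paired analysis was possible because each culture has 1 array, and for the same reason no replicate could be left out. With no detection calls used, signals near or under the floor cannot be ordered.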
